A study of Mus musculus with 6 samples.

Results

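Capillary and vessel endothelial genes are the genes that mark the inner lining of blood vessels: adhesion molecules shared by the whole vascular tree, genes of the lung's capillary cells, and genes of arteries or veins. They were taken as the rows of the count tables whose symbol is on a fixed list of 48, and all 48 were found among 23238 gene symbols. The list was chosen with earlier results of these data known. RNA was sequenced from whole lung of wild-type (WT) mice given PM, or the vehicle phosphate-buffered saline (PBS) alone, both by the route that the labels abbreviate as i.t., and the series title calls the exposure chronic. The labels do not spell out PM and give no dose, duration, age or strain. Each group had 3 samples, but all 23282 entries of the PBS replicate 2 table equal those of PBS replicate 1, so the pair was counted as 1 sample, which leaves 2 PBS and 3 PM libraries. Whether each sample came from its own animal is not stated, and p-values therefore cover only the spread among these libraries, which may be technical.

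Endothelial cells of the lung form one of the densest capillary beds of the body. They are held together by VE-cadherin and claudins, are kept alive and quiescent by VEGF and angiopoietin receptors, and take their identity from transcription factors of the ETS and SOX families. Alveolar capillaries are built from flat aerocytes, which face the air space and carry carbonic anhydrase 4 and the endothelin B receptor, and from general capillary cells, which carry the apelin receptor and serve as their progenitors. In whole tissue, fewer endothelial cells and less RNA per endothelial cell cannot be told apart.

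Endothelial markers were present in every library: counts over the 48 genes and 5 libraries ran from 26 to 8118, and all 48 passed the filter on low counts. Levels are given in CPM (counts scaled for library size with edgeR's TMM factors). Total counts were 7410200 to 8827202 per library. Rn45s, the ribosomal RNA precursor, took 15.7% to 25.4% of counts, and haemoglobin genes took 5.41% in PBS replicate 1 against 0.632% to 1.82% in the other libraries. Compared per length (mean CPM in PBS per kilobase of the longest coding transcript), the highest levels among the 48 were those of Ramp2 at 327, Egfl7 at 326, Plvap at 257, Tmem100 at 248 and Car4 at 202. The lowest on the same scale were Nos3 at 1.01, Slc6a2 at 3.42, Gja5 at 4.0, Bmx at 5.23 and Aplnr at 5.80.

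In PM lung most endothelial genes stood modestly below PBS, and a minority did not. The fitted log2 fold, PM minus PBS, was below 0 for 38 of 48 genes (79.2%), against 48.9% of the 14057 genes tested. Its median over the 48 was -0.27, with a range from -0.65 for Eng to 0.67 for Slc6a2, against a median of 0.01 over all tested genes. No endothelial gene passed edgeR's quasi-likelihood test at a Benjamini-Hochberg adjusted p below 0.05, a threshold that 0.228% of all tested genes passed. At an unadjusted p below 0.05, 19 of 48 (39.6%) were lower and 1 (2.08%) was higher, against 6.05% and 7.26% of all genes. All PM libraries lay below both PBS libraries for 21 of 48 (43.8%) and above them for 2 (4.17%), against 16.1% and 15.5% of all genes. Because the 48 were chosen with earlier results of these data known, these shares describe the list and are not an independent comparison. The summed level of the 48 genes was 9815 and 10417 CPM in PBS replicates 1 and 3 and 8483, 7537 and 8894 CPM in PM replicates 1, 2 and 3.

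The calls rested on the choice of test and on single libraries. At an adjusted p below 0.10, 4 genes were lower (Eng, Tie1, Egfl7 and Esam) and none of the 48 was higher, where 0.569% of all genes were lower. DESeq2 called the same 4 genes lower at an adjusted p below 0.05 (0.818% of all genes were called lower), as did edgeR with no filter on low counts (0.610%), and edgeR with a minimum of 1 CPM in 2 libraries called Eng and Tie1 (0.214%). Limma-voom called 0. Without PM replicate 3, 7 of the 48 were called lower, with 1.19% of all genes. With all 6 tables as deposited, which enters the identical table as a further library, 7 were called lower, with 2.09% of all genes. Without PBS replicate 3, 7 rather than 19 were lower at an unadjusted p below 0.05, with 2.87% of all genes.

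**Figure D1:**
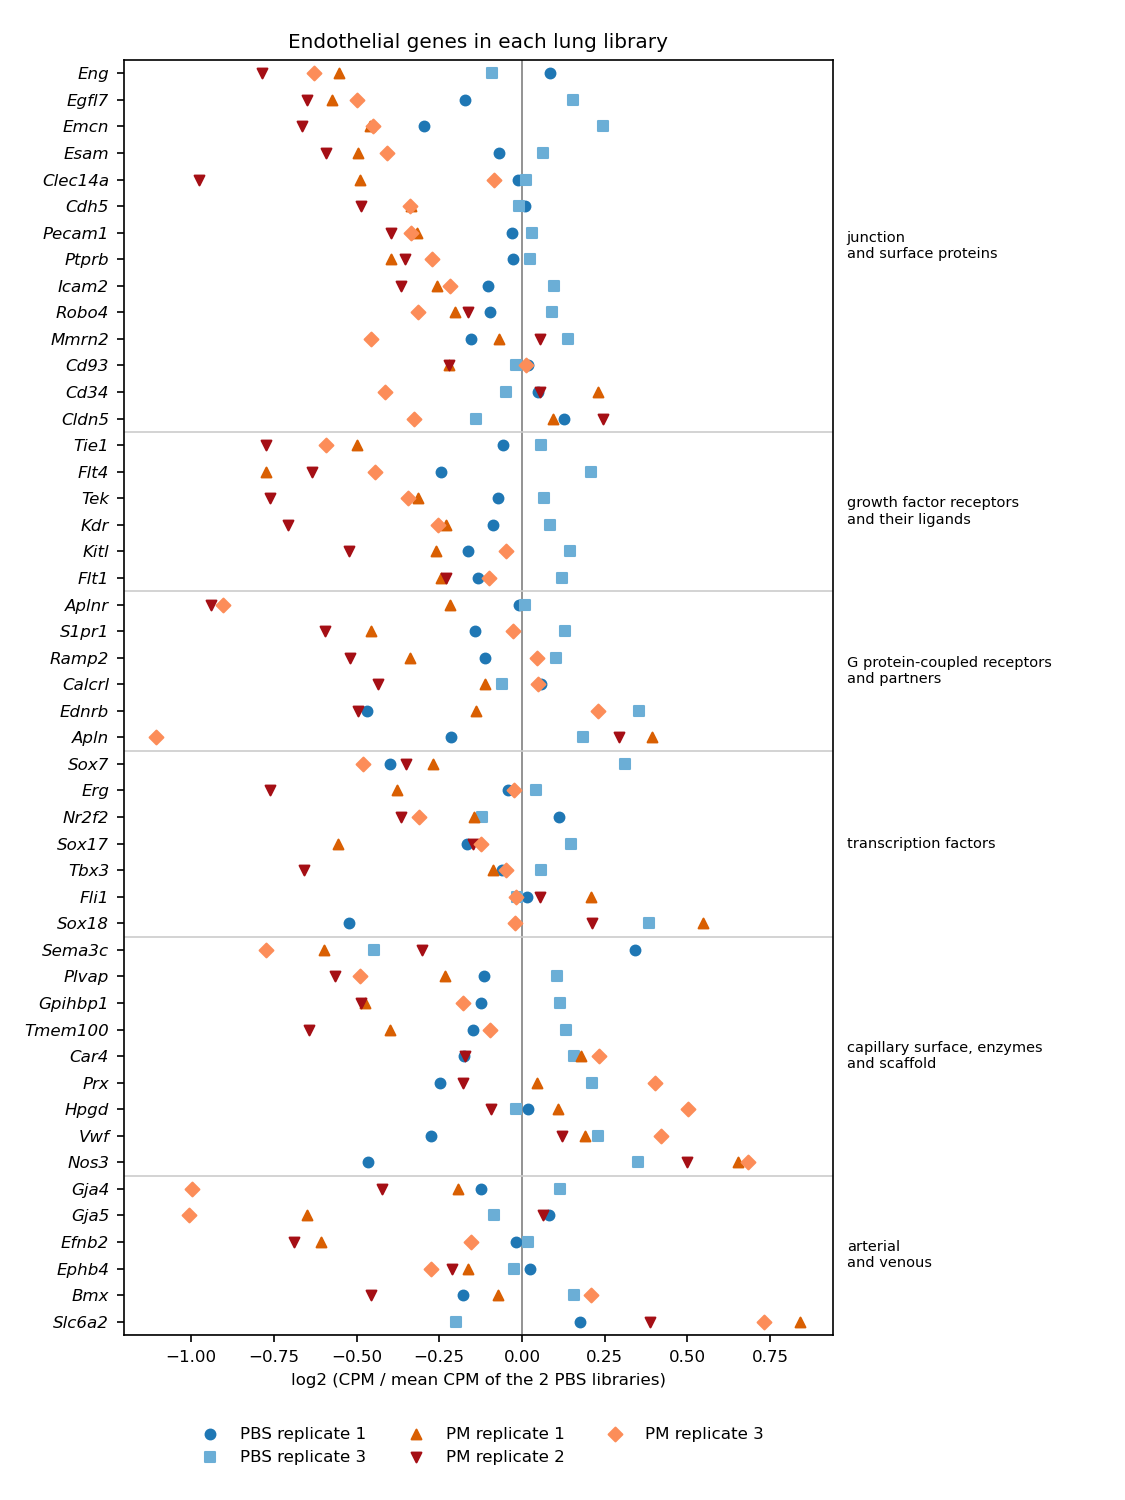
Level of each of the 48 endothelial genes in each of the 5 distinct libraries, as log2 of its CPM over the mean of the 2 PBS libraries (x axis), with genes on the y axis grouped by role and ordered by fold within a role. Each point is 1 library: blue for PBS and orange to red for PM. PM points lie left of both PBS points for 21 genes, among them Eng, Egfl7, Tie1 and Pecam1, and right of them for Nos3 and Slc6a2.

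**Figure D2:**
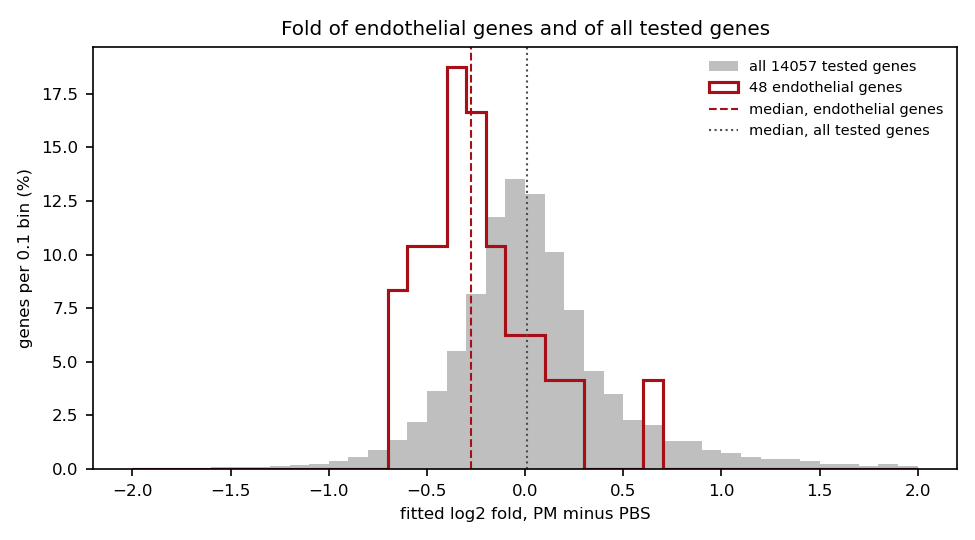
Share of genes in each 0.1 bin of fitted log2 fold, PM minus PBS, for all 14057 tested genes (grey) and for the 48 endothelial genes (red line), with the medians as vertical lines. The endothelial median lies at -0.27 and that of all genes at 0.01. Beyond the axis lie 1.12% of all tested genes.

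The gene with the smallest p was Eng, which encodes endoglin, the endothelial co-receptor for BMP9 mutated in hereditary haemorrhagic telangiectasia. It stood at 229 and 203 CPM in PBS replicates 1 and 3 against 147, 126 and 140 CPM in the 3 PM libraries, given in the order of their numbers here and from here on. The groups did not overlap, and the log2 fold was -0.65 ± 0.12 SE (adjusted p = 0.0525). Tie1, an orphan receptor tyrosine kinase that modulates angiopoietin signalling, stood at 164 and 177 CPM in PBS and at 120, 99.6 and 113 CPM in PM, a log2 fold of -0.62 ± 0.12 (adjusted p = 0.0530). For both genes every PM library lay well below both PBS libraries. Egfl7, a secreted factor of vessel sprouts whose gene also hosts miR-126, stood at 402 and 504 CPM in PBS and at 304, 289 and 321 CPM in PM, a log2 fold of -0.57 ± 0.12 (adjusted p = 0.0681). Esam, an adhesion molecule of endothelial tight junctions, stood at 329 and 362 CPM in PBS and at 245, 229 and 260 CPM in PM, a log2 fold of -0.50 ± 0.11 (adjusted p = 0.0780). In GRCm38, the assembly called mm10, RefSeq places Eng on chromosome 2 at 32646595 to 32682669, Tie1 on chromosome 4 at 118471191 to 118489849, Egfl7 on chromosome 2 at 26581083 to 26592682 and Esam on chromosome 9 at 37528089 to 37538319. Exons of Eng overlap those of Fpgs on the opposite strand, and exons of Egfl7 overlap the gene model Gm20532 on the same strand, so reads there may belong to either gene.

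Promoters of genes with different folds are shown side by side because vascular genes are known as targets of ETS factors. The windows are the 250 bases before the RefSeq start in GRCm38.p6, 5′ to 3′ on the gene's strand. Shown are the 3 genes with folds below 0 and the 2 with folds above 0 that had the smallest p, among those with a single listed promoter. The 2 with folds above 0, Hpgd and Car4, overlapped between groups. Capitals mark AGGAAG, a core that ETS factors bind, and its reverse complement CTTCCT. The windows lie at chr2:32646345-32646594 (plus strand) for Eng, chr4:118489850-118490099 (minus) for Tie1, chr11:49609429-49609678 (plus) for Flt4, chr8:56294302-56294551 (plus) for Hpgd and chr11:84957504-84957753 (plus) for Car4.
Eng: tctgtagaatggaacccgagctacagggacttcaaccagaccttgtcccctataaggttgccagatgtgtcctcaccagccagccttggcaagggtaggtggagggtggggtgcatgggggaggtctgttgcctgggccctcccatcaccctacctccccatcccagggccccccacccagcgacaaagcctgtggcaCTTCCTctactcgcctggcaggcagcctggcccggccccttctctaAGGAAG
Tie1: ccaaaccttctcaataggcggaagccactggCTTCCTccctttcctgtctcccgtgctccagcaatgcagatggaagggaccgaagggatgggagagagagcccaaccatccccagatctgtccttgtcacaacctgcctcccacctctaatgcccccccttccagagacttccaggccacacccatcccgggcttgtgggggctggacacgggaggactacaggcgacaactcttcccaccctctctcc
Flt4: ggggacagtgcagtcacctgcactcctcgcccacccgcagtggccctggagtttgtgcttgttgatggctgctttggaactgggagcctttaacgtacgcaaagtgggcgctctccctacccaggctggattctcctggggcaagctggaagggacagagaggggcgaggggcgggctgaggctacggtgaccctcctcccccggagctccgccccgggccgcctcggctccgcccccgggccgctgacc
Hpgd: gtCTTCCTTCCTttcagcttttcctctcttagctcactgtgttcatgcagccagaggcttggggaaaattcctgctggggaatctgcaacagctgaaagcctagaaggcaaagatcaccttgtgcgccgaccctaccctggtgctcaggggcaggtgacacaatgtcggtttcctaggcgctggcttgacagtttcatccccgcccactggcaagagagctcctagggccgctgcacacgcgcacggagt
Car4: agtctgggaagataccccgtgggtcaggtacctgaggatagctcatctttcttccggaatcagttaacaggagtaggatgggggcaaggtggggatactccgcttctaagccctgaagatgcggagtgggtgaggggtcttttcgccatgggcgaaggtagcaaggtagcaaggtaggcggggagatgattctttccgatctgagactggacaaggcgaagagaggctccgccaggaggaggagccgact

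Eng held AGGAAG once on each strand, Tie1 once in reverse, Hpgd 2 overlapping times in reverse, and Flt4 and Car4 held 0 matches. Of the 48 genes, 27 had a listed promoter. Of these, 13 (48.1%) held AGGAAG on either strand in at least 1 window, against 32.3% of 27025 genes and 29.5% of 32851 single windows. The SOX core AACAAT was found in 4 of 27 (14.8%) against 10.9% of genes, the RBPJ core TGGGAA, through which Notch acts, in 8 of 27 (29.6%) against 24.1%, and the GATA core AGATAA in 1 of 27 (3.70%) against 11.4%, each on either strand. Both a gene lower in PM and a gene not lower in PM held the ETS core, and both kinds lacked it.

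Junction and surface genes mostly stood lower in PM. Of 14 genes, 13 had a fold below 0, 8 at an unadjusted p below 0.05, and the median log2 fold was -0.34. Pecam1, the adhesion molecule CD31, stood at 479 and 499 CPM in PBS and at 392, 371 and 388 CPM in PM, with a log2 fold of -0.35 ± 0.10 SE (adjusted p = 0.167). Cdh5, which encodes VE-cadherin, the adherens junction cadherin of endothelium, stood at 324 and 320 CPM in PBS and at 255, 230 and 255 CPM in PM (-0.39 ± 0.11, adjusted p = 0.146). For both genes the 2 PBS libraries lay within a few percent of each other and every PM library was lower. Ptprb, the phosphatase VE-PTP that acts on TIE2 and VE-cadherin, was the most abundant of the role in CPM, at 941 and 975 in PBS and 728, 749 and 792 in PM. Emcn, a sialomucin of capillaries and veins, had a log2 fold of -0.52 ± 0.20, Icam2, an adhesion molecule for leukocytes, of -0.28 ± 0.12, and Robo4, a guidance receptor that stabilises vessels, of -0.22 ± 0.14. The groups did not overlap for any of these 3, though the fold of Emcn ran from -0.76 without PBS replicate 1 to -0.22 without PBS replicate 3. Clec14a, a lectin-like receptor, varied more among PM libraries, at 233 and 237 CPM in PBS and 168, 120 and 222 CPM in PM.

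The remaining junction and surface genes overlapped between groups. Cldn5, the tight junction claudin of endothelium, stood at 136 and 113 CPM in PBS and at 133, 148 and 99.4 CPM in PM, with a log2 fold of 0.02 ± 0.17 that was -0.03 when libraries were scaled by their totals. The adherens junction gene Cdh5 and the tight junction gene Cldn5 had folds of -0.39 and 0.02, a difference that was not itself tested. Cd34, a sialomucin also found on progenitors and fibroblasts, was at -0.02 ± 0.17. Cd93, a receptor for multimerin-2, and Mmrn2, multimerin-2 itself, were both at -0.14, with SE of 0.12 and 0.18.

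Growth factor receptor genes also stood lower in PM. All 6 genes of this role had a fold below 0, with a median of -0.42, and 4 were lower at an unadjusted p below 0.05. Kdr, the principal VEGF receptor of endothelium, stood at 505 and 569 CPM in PBS and at 457, 329 and 450 CPM in PM (-0.38 ± 0.15 SE, adjusted p = 0.298). Tek, the angiopoietin receptor TIE2, stood at 93.6 and 103 CPM in PBS and at 79.1, 58.0 and 77.6 CPM in PM (-0.46 ± 0.15, adjusted p = 0.194). In both, PM replicate 2 was the lowest library and the other PM libraries lay nearer to PBS. Flt4, VEGF receptor 3 of lymphatic and some capillary endothelium, stood at 33.4 and 45.8 CPM in PBS and at 23.1, 25.5 and 29.1 CPM in PM (-0.61 ± 0.18, adjusted p = 0.167). Flt1, the VEGF receptor that acts largely as a decoy, overlapped between groups at -0.19 ± 0.12. Kitl, the ligand of KIT made by aerocytes, also overlapped, at -0.26 ± 0.15.

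Among the genes of peptide and lipid signalling, 5 of 6 had a fold below 0, with a median of -0.20. Calcrl, the receptor for adrenomedullin, stood at 846 and 780 CPM in PBS and at 752, 602 and 840 CPM in PM (-0.15 ± 0.14 SE). Its partner Ramp2, which gives the receptor its adrenomedullin specificity, was at -0.25 ± 0.16. S1pr1, a sphingosine 1-phosphate receptor that tightens the barrier, stood at 210 and 253 CPM in PBS and at 169, 153 and 227 CPM in PM (-0.34 ± 0.17). In these 3 genes PM replicate 2 was the lowest library and PM replicate 3 lay within or near the PBS range. Aplnr, the apelin receptor, was the exception without overlap, at 21.3 and 21.6 CPM in PBS and 18.5, 11.2 and 11.5 CPM in PM (-0.64 ± 0.24, adjusted p = 0.271). Its ligand Apln stood at 32.8 and 43.2 CPM in PBS and at 49.9, 46.6 and 17.7 CPM in PM, with PM replicate 3 far below the others, and a fold of 0.00 ± 0.48 that was -0.07 under scaling by library totals.

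Transcription factors of endothelium overlapped between groups in 6 of 7 cases, with a median log2 fold of -0.26, near the -0.27 of all 48. Most tested genes overlapped too: 16.1% had every PM library below both PBS libraries and 15.5% had every PM library above. Erg, an ETS factor that maintains endothelial identity, stood at 51.1 and 54.2 CPM in PBS and at 40.6, 31.1 and 51.8 CPM in PM (-0.35 ± 0.19 SE). Fli1, its relative that blood cells and platelets also express, was at 62.2 and 60.9 CPM in PBS and 71.2, 63.9 and 60.8 CPM in PM (0.09 ± 0.13). The pair of ETS genes therefore had folds of opposite sign, neither past the test. Of the SOX factors that specify vessels, Sox7 and Sox17 were at -0.36 ± 0.21 and -0.26 ± 0.19. Sox18 was at 0.27 ± 0.29, with 36.9 and 69.1 CPM in PBS and 77.5, 61.3 and 52.2 CPM in PM. For Sox17 the levels were 30.0 and 37.3 CPM in PBS and 22.9, 30.4 and 30.9 CPM in PM. Tbx3, a T-box repressor, was at -0.24 ± 0.17. Nr2f2, the venous factor COUP-TFII, which fibroblasts also express, was the exception without overlap, at 490 and 417 CPM in PBS and 410, 352 and 366 CPM in PM (-0.27 ± 0.12, adjusted p = 0.361).

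Of 9 genes of the capillary surface, 4 had a fold below 0 and 5 above, with a median of 0.09. At an unadjusted p below 0.05, 3 were lower and 0 higher. Plvap, the diaphragm protein of fenestrae and caveolae, stood at 471 and 549 CPM in PBS and at 434, 345 and 364 CPM in PM (-0.42 ± 0.13 SE, adjusted p = 0.180). Gpihbp1, which carries lipoprotein lipase to the capillary lumen, stood at 145 and 171 CPM in PBS and at 114, 113 and 140 CPM in PM (-0.37 ± 0.13, adjusted p = 0.247). The groups did not overlap for either. Tmem100, a membrane protein induced by BMP9, was at -0.36 ± 0.16, and Sema3c, a secreted semaphorin, at -0.55 ± 0.24, both with overlap. Sema3c differed by 1.73 times between the PBS libraries themselves, and its fold was -0.10 without PBS replicate 1 and -0.89 without PBS replicate 3.

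The other 5 capillary genes had folds above 0. Of these, 4 overlapped between groups, and 15.5% of all tested genes had every PM library above both PBS libraries. Car4, the carbonic anhydrase of aerocytes, stood at 225 and 283 CPM in PBS and at 287, 225 and 298 CPM in PM (0.09 ± 0.15 SE). Hpgd, which inactivates prostaglandins, stood at 197 and 192 CPM in PBS and at 210, 182 and 275 CPM in PM (0.20 ± 0.16). Prx, periaxin, a scaffold protein of aerocytes, was at 42.2 and 58.0 CPM in PBS and 51.7, 44.3 and 66.2 CPM in PM (0.11 ± 0.19). All 3 overlapped between groups, and PM replicate 3 was the highest library for each. Vwf, the clotting factor carrier stored in endothelial granules and platelets, stood at 70.8 and 100.4 CPM in PBS and at 97.7, 93.0 and 115 CPM in PM (0.25 ± 0.16). Nos3, endothelial nitric oxide synthase, was low in every library, at 3.01 and 5.31 CPM in PBS and 6.54, 5.88 and 6.68 CPM in PM (0.62 ± 0.36, adjusted p = 0.504), and its exons overlap those of Atg9b on the opposite strand. These folds leaned on single libraries: Vwf was at 0.02 without PBS replicate 1, Hpgd at 0.01 without PM replicate 3, and Nos3 at 0.26 without PBS replicate 1 and 1.08 without PBS replicate 3.

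Set beside each other by capillary cell state, a grouping made after the values were seen and not tested, the 2 kinds of gene gave the following values. Ednrb, the endothelin B receptor of aerocytes, stood at 33.1 and 58.5 CPM in PBS and at 41.6, 32.5 and 53.7 CPM in PM (-0.10 ± 0.29 SE). With Car4, Apln, Kitl and Prx it made 5 aerocyte genes, of which 0 were free of overlap between groups and whose median log2 fold was 0.00. The 6 general capillary genes Gpihbp1, Aplnr, Plvap, Sema3c, Cd93 and Ptprb had a median of -0.40, and 4 of them lay below both PBS libraries in every PM library. Of all tested genes, 16.1% lay below both PBS libraries in every PM library and 15.5% above them, so overlap was the usual state. With so few genes, these counts do not set the 2 kinds apart. Summed, the aerocyte genes were at 540.5 and 699.3 CPM in PBS and 624.2, 510.4 and 660.5 CPM in PM, and the general capillary genes at 2370 and 2375 CPM in PBS and 1873, 1829 and 1943 CPM in PM. Tbx2 and Fibin, further genes known from aerocytes and named after their values were seen, were at -0.41 ± 0.14 and -0.45 ± 0.15, and Chst1 was at -0.17 ± 0.12, each with every PM library below both PBS libraries. Aerocyte genes thus did not share 1 pattern.

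**Figure D3:**
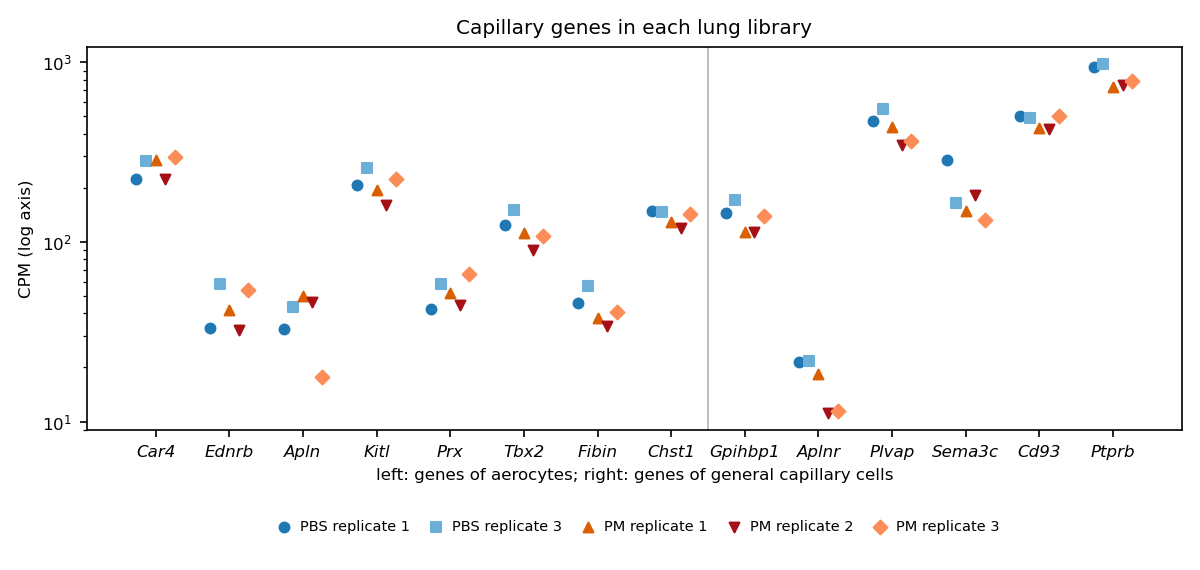
CPM on a log axis (y) for 8 genes known from aerocytes (left of the line) and 6 of general capillary cells (right), with 1 point per library in the colours of PBS (blue) and PM (orange to red). All PM points lie below both PBS points for Tbx2, Fibin, Chst1, Gpihbp1, Aplnr, Plvap and Ptprb, and the groups overlap for Car4, Ednrb, Apln, Kitl, Prx, Sema3c and Cd93.

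Arterial and venous genes gave 5 folds below 0 of 6, with a median of -0.34. Efnb2, the arterial ephrin, stood at 160 and 164 CPM in PBS and at 106, 100 and 146 CPM in PM (-0.46 ± 0.15 SE, adjusted p = 0.213). Its venous receptor Ephb4 was at 49.6 and 48 CPM in PBS and 43.6, 42.1 and 40.4 CPM in PM (-0.22 ± 0.13, adjusted p = 0.521). Both members of this artery to vein pair were lower in every PM library than in both PBS libraries, as were 16.1% of all tested genes. Gja5, connexin 40 of arteries, stood at 15.5 and 13.8 CPM in PBS and at 9.35, 15.3 and 7.31 CPM in PM (-0.47 ± 0.30), and Gja4, connexin 37, had a fold of -0.50 ± 0.21. Exons of Gja5 overlap those of Gpr89 on the opposite strand. Bmx, an arterial tyrosine kinase, was at -0.08 ± 0.24.

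Slc6a2, the noradrenaline transporter found on lung vein endothelium and on sympathetic nerves, was the gene most clearly higher. It stood at 23.9 and 18.4 CPM in PBS and at 37.9, 27.7 and 35.1 CPM in PM. All PM libraries lay above both PBS libraries, with a log2 fold of 0.67 ± 0.20 SE, 1.59 times PBS (adjusted p = 0.158). Its GRCm38 position is chromosome 8, 92960470 to 93001667. The other venous genes had folds of -0.22 for Ephb4 and -0.27 for Nr2f2, with 0.25 for Vwf, which is higher in veins than in capillaries.

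With each library left out in turn, 14 genes kept a fold of the same sign within 1.5 times of the reported value: Eng, Tie1, Egfl7, Esam, Cdh5, Pecam1, Ptprb, Plvap, Gpihbp1, Tek, Aplnr, Efnb2, Ephb4 and Slc6a2. The folds of the other 34 moved further or, for 10 of them, changed sign.

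PM libraries differed in how far they lay from PBS. PM replicate 2 was the lowest PM library for 32 of 48 genes, PM replicate 3 for 12 and PM replicate 1 for 4. The members' median log2 ratio to the PBS mean was -0.24, -0.41 and -0.24 in PM replicates 1, 2 and 3, and -0.09 and 0.09 in PBS replicates 1 and 3. Below both PBS libraries were 33, 33 and 29 of the 48 genes in PM replicates 1, 2 and 3. Without PM replicate 2 the median fold was -0.24, and over every left-out library it ran from -0.37 without PBS replicate 1 to -0.20 without PBS replicate 3.

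The ligands and partners of these receptors were followed in lists of 122 further genes of vessel biology, of which 114 were tested. By edgeR's quasi-likelihood test 0 passed, and 37 (32.5%) were lower and 6 (5.26%) higher at an unadjusted p below 0.05, with a median log2 fold of -0.28. DESeq2 called 6 of them lower (Adgrf5, Angpt1, Ece1, Figf, Rasip1 and Tspan7) and 2 higher (Lpl and Lrg1), where it called 1.90% of all genes higher, and limma-voom called 0. In the VEGF and angiopoietin list (11 tested, 4 lower and 0 higher at that level), Angpt1, the activating ligand of TIE2 made by perivascular cells, stood at 197 and 185 CPM in PBS and 116, 93.0 and 127 CPM in PM (-0.77 ± 0.14 SE, adjusted p = 0.0525). Figf, which encodes VEGF-D, a ligand of VEGF receptors 2 and 3, stood at 97.7 and 99.0 CPM in PBS and 59.3, 45.1 and 67.7 CPM in PM (-0.78 ± 0.16, adjusted p = 0.0605). The ligand Angpt1, its receptor gene Tek and the orphan receptor gene Tie1 were thus lower in every PM library. Of all tested genes, 16.1% likewise had every PM library below both PBS libraries. Angpt2 of the same list, named after its values were seen, overlapped between groups. It stood at 29.4 and 19.9 CPM in PBS and at 22.9, 18.3 and 14.9 CPM in PM. Of genes named after their values were seen, Vegfa, made largely by alveolar type 1 cells, was at -0.30 ± 0.13, and Adm, adrenomedullin, at -1.10 ± 0.37 with levels of 13.1 and 8.03 CPM in PBS and 4.32, 3.30 and 7.06 CPM in PM.

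In the BMP9 list, which holds the partners of endoglin, 11 of 12 tested genes had a fold below 0 and 2 were lower at an unadjusted p below 0.05: Bmpr2, the type 2 receptor, at -0.41 ± 0.15 SE, and Acvrl1, the receptor ALK1, at -0.45 ± 0.17. The Notch list had 6 of 12 below 0 and 4 lower at that level, led by Dll4, the Notch ligand of endothelium (-0.53 ± 0.15), and Hey1, a Notch target (-0.58 ± 0.19), while the ligand Jag1 was at 0.41 ± 0.20. Among ligands of the peptide and lipid receptors (13 tested, of which 5 were lower and 1 higher), Ece1, the enzyme that matures endothelins, was at -0.53 ± 0.12 (adjusted p = 0.0940), Edn3, endothelin 3, at -0.94 ± 0.26, and Ramp1, a partner of Calcrl for CGRP, at 0.69 ± 0.25. The guidance list gave 2 lower and 0 higher of 12, with Slit2, a ligand of ROBO receptors, at -0.62 ± 0.20 and the VEGF co-receptor Nrp1 at -0.27 ± 0.11. Of 17 tested endothelial transcription factors outside the 48, 5 were lower and 0 higher, with Tal1 at -0.55 ± 0.17 and its partner Lmo2 at -0.49 ± 0.16. Of 28 other endothelial genes, 14 were lower, led by the adhesion receptor Adgrf5 (-0.53 ± 0.12, adjusted p = 0.0869) and the junction regulator Rasip1 (-0.42 ± 0.11), and 2 were higher: Lpl, lipoprotein lipase, at 0.56 ± 0.12 (adjusted p = 0.0634), and Fabp4, a fatty acid binding protein, at 1.95 ± 0.59. Macrophages also express Lpl and Fabp4. Lpl and its capillary anchor Gpihbp1 had folds of opposite sign.

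Genes of endothelial activation and leukocyte adhesion had the only positive median of these lists, 0.23 over 10 tested, where 3 genes were higher and 2 were lower by the same unadjusted threshold. Lrg1, a glycoprotein that modulates endoglin signalling and that neutrophils also make, stood at 152 and 114 CPM in PBS and at 238, 430 and 279 CPM in PM (1.24 ± 0.28 SE, adjusted p = 0.148). Lower were Cx3cl1, the membrane-bound chemokine fractalkine, at -0.64 ± 0.20, and Esm1, a tip cell proteoglycan, at -0.90 ± 0.31.

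Markers of other cells moved beside these genes. Macrophage and monocyte markers were higher in PM, with 6 of 12 at an unadjusted p below 0.05, a summed level of 365.7 and 572.5 CPM in PBS and 1077 to 1903 CPM in PM, and Ccr2 as the only gene of all these lists past the test (1.28 ± 0.16 SE, adjusted p = 0.0142). General leukocyte markers summed to 604.8 to 726.0 CPM in PBS and 921.1 to 1364 CPM in PM, with 4 of 12 higher at an unadjusted p below 0.05. The neutrophil genes S100a8 and S100a9 made up 801.8 CPM of the sum in PM replicate 3, and without this pair the sums were 497.8 to 506.1 CPM in PBS and 562.2 to 820.6 CPM in PM. Alveolar type 1 markers were lower to a degree like that of the endothelial genes, with a median of -0.26, 4 of 10 lower at that level and sums of 9397 to 9426 CPM in PBS and 7449 to 8500 CPM in PM. Fibroblast markers had a median of -0.29 (3 of 10 lower, sums of 2246 to 2278 and 1572 to 2063 CPM). Alveolar type 2 markers had a median of 0.13 (3 of 10 higher, 20295 to 24924 and 24448 to 26798 CPM), and airway markers one of 0.47 (5 of 9 higher, 21814 to 22553 and 17351 to 33668 CPM). Pericyte and smooth muscle markers had a median of -0.20, with 2 of 11 lower, among them Pdgfrb at -0.50 ± 0.16, and 1 higher, Acta2 at 0.61 ± 0.17, and they summed to 506.6 to 568.0 CPM in PBS and 462.9 to 636.5 CPM in PM. Mesothelial markers had a median of -0.42, with 1 of 5 lower and sums of 121 to 143 CPM in PBS and 99.9 to 119 CPM in PM.

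Platelet markers, which bear on Vwf, Fli1 and other genes that platelets share, had a median of 0.28 over 8, with 0 at an unadjusted p below 0.05 and sums of 112.6 to 122.9 CPM in PBS and 113.8 to 164.3 CPM in PM. Lymphatic markers, which bear on Flt4, had a median of 0.14 over 7, with 1 lower, Pdpn, which alveolar type 1 cells also express, and sums of 614.8 to 771.0 CPM in PBS and 548.3 to 873.5 CPM in PM. Erythroid markers summed to 47964 and 12927 CPM in PBS and 5083 to 16058 CPM in PM. Markers of pulmonary vein muscle summed to 539.1 and 201.8 CPM in PBS and 163.2 to 461.0 CPM in PM, with 0 of 7 at an unadjusted p below 0.05. Prox1, the defining lymphatic factor, did not pass the filter on low counts. No gene of these other-cell lists was at 0 in all libraries, and the part of these cells in the endothelial values was not tested.

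**Figure D4:**
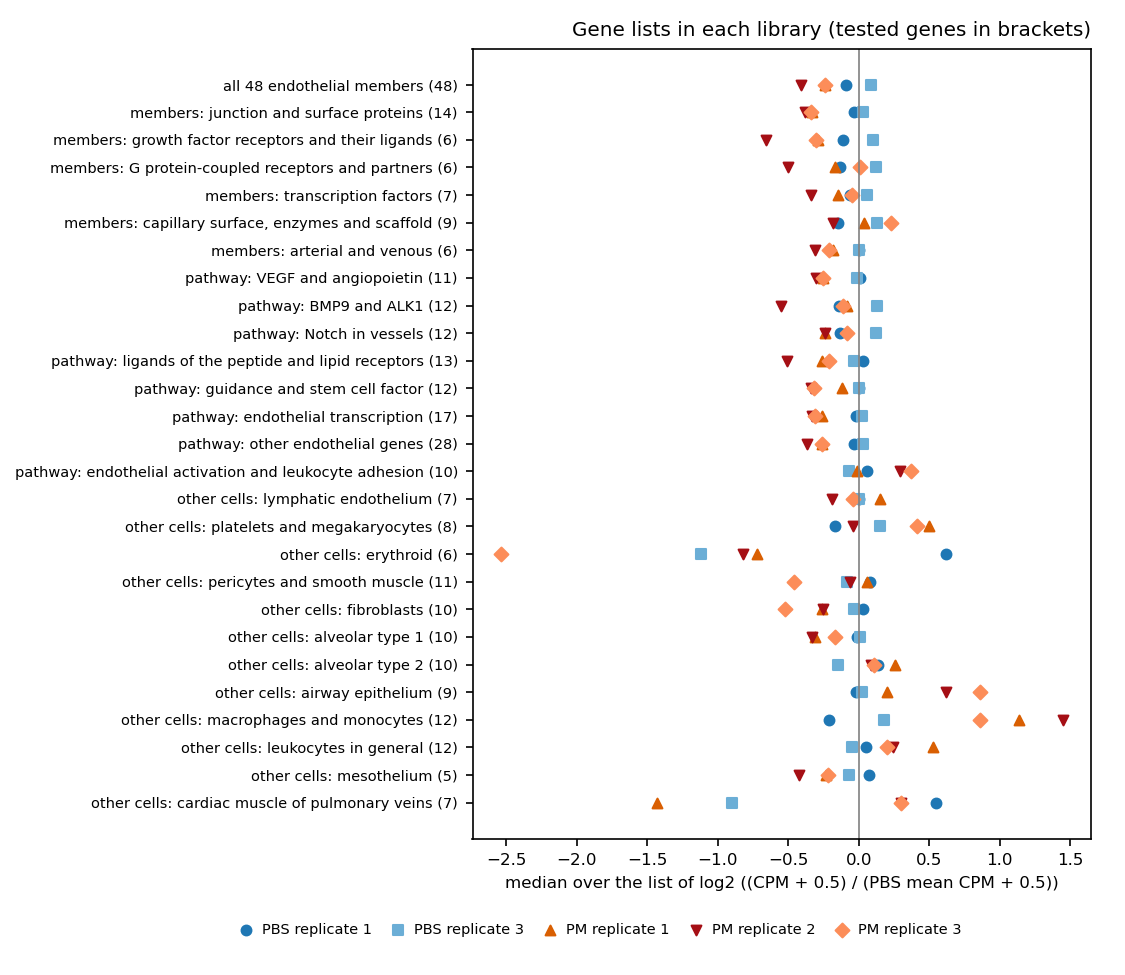
Median over each gene list of log2 of (CPM + 0.5) over (mean PBS CPM + 0.5), with lists on the y axis and 1 point per library (blue for PBS, orange to red for PM). The 48 endothelial genes lie at -0.24, -0.41 and -0.24 in PM replicates 1, 2 and 3, near alveolar type 1 genes at -0.31, -0.33 and -0.17, while macrophage and monocyte genes lie at 1.14, 1.45 and 0.86.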

How the data were processed

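Lung RNA of 6 samples was sequenced after library preparation with the SENSE mRNA-Seq kit of Lexogen, per the labels' protocols. TopHat, Cufflinks and the build mm10 are named in the submitters' processing notes, without roles. What counted the reads, on which annotation and with what strand setting was not given in the sources used here. Each deposited table holds whole-number read counts by gene symbol, and no normalization by the authors is recorded. Since strand use is unknown, overlapping genes may share reads. Exons of 6 of the 48 genes overlap another gene in GENCODE M21 (Cd34, Eng, Egfl7, Prx, Nos3 and Gja5).

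A blank row was left out, and 44 entries that repeated a symbol, with 0.0251% of counts, were set aside in favour of the entry with the highest total. Counts were fitted with edgeR 4.0.16 in R 4.3.3: filterByExpr, TMM scaling and the robust, two-sided quasi-likelihood test without covariates, with Benjamini-Hochberg adjustment over all 14057 tested genes. Folds are log2, PM minus PBS, with SE as the fold over the square root of F. Depth per library is 7410200 to 8827202 counts. The fit was tested on simulated data for this comparison. Over 13897 genes it recovered 64.0% of 100 genes changed 2-fold and 95.0% of 100 changed 4-fold, with 11 false among 170 calls. Changed genes were drawn only from those above a minimum level, and no change below 2-fold was simulated. The log2 folds of the 48 genes, -0.65 to 0.67, were all smaller than 2-fold, so recovery at their size is unknown. Alternatives were other scalings, filters, tests (DESeq2 1.42.0, limma-voom of limma 3.58.1), left-out libraries, the replicate block and all 6 tables.

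The members and lists were chosen with earlier results of these data known. Named with all their values were 19 defining genes, any called gene and the 8 genes with the smallest p in each direction, and from each other list at most 2 genes in each direction. Vegfa, Angpt2, Adm, Tbx2, Fibin, Chst1, Tspan7, S100a8 and S100a9 were named beyond this rule, after their values were seen. Ptprb, Clec14a and Apln were given with all their values beyond it too, and Prox1 was named as not tested.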

Additional observations from a re-analysis of the deposited data

How the results depend on the processing

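Of 33 endothelial genes the fold was below 0 under the main settings and all 16 alternatives, and of 5 it was above 0. The members' median log2 fold kept its sign under all 16, from -0.31 (library totals) to -0.24 (all 6 tables; replicate block), and from -0.37 to -0.20 with a library left out. Against 0 endothelial genes called, 4 were called at an adjusted p below 0.10, 4 with no filter on low counts, 2 with a minimum of 1 CPM in 2 libraries, 4 by DESeq2, 7 with all 6 tables and 5 with the replicate block, and 0 to 7 with a library left out. Over all genes, 32 calls became 206 at an adjusted p below 0.10, 51 with library totals, 275 with no filter, 81 with the 1 CPM minimum, 382 by DESeq2, 17 by limma-voom, 635 with all 6 tables, 353 with the replicate block, and 1 to 427 with a library left out (1, 6, 12, 106 and 427 without PBS replicates 1 and 3 and PM replicates 1, 2 and 3). The cause of these moves was not tested. The replicate block called Slc6a2 higher and Eng, Tie1, Egfl7 and Esam lower, with 2.51% of all genes called. In that fit PM replicate 2 had no PBS library of the same number, so it did not inform the folds. Eng was at -0.59 both with the block and without PM replicate 2. The block also left few degrees of freedom to estimate the spread. Same-numbered libraries had correlations of their deviations from the group mean of -0.028 and 0.057, and libraries of different number from -0.077 to 0.077. The 2 PBS libraries deviate by equal amounts in opposite directions, so these values cannot show whether a number marks anything shared. With only these 2 shared numbers, and no label on what a number marks, the samples were not treated as pairs, and a shared day or batch was not tested.

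The folds of 10 genes changed sign, among them Sox7 and Sox18, reported at -0.36 and 0.27. Cldn5 was at -0.03 with library totals, -0.01 with all 6 tables and -0.11 with the replicate block. Apln was at -0.07 with library totals, 0.00 with no filter, -0.13 by limma-voom and -0.29 with the block. Ednrb was at 0.04 with all 6 tables and 0.10 with the block, and Bmx at 0.08 with the block. With a library left out, folds ran from -0.10 to 0.17 for Cldn5, -0.16 to 0.15 for Cd34, -0.28 to 0.01 for Mmrn2, -0.25 to 0.35 for Apln, -0.45 to 0.36 for Ednrb, -0.67 to 0.03 for Sox7, -0.12 to 0.79 for Sox18, -0.06 to 0.26 for Car4, -0.10 to 0.36 for Prx and -0.24 to 0.10 for Bmx. Nos3 had the lowest count of the 48 genes, 26 in 1 library, and Apln, with an SE of 0.48, was the least precise.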

Other observations

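The endothelial genes differed in how far libraries of a group lay apart. The higher PBS library exceeded the lower by a median of 1.17 times over the 48 genes. The widest gaps between the PBS libraries were those of Sox18 (1.88 times), Ednrb (1.77), Nos3 (1.76), Sema3c (1.73) and Sox7 (1.64). Sox18, Ednrb, Nos3 and Sox7 were higher in PBS replicate 3, and Sema3c in PBS replicate 1. Among the PM libraries the highest exceeded the lowest by a median of 1.37 times. Apln had the widest range there (2.83 times), followed by Gja5 (2.10), Clec14a (1.85) and Gja4 (1.75). PM replicate 3 was the lowest library for Apln, Gja5 and Gja4, at 17.7, 7.31 and 34.4 CPM, whereas PM replicate 2 was the lowest for Clec14a, at 120 CPM.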
